A study of Homo sapiens with 2 samples.

Results

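The genes described here are 38 integrin and focal adhesion genes, chosen by symbol for their roles with earlier results of these data known. Each was matched to 1 of the 63677 Ensembl gene IDs in the deposited count tables. RNA sequencing covered MDA-MB-231, a human breast cancer line of mesenchymal character that lacks the oestrogen and progesterone receptors. 1 library was from control cells, and 1 was from cells kept for 24 h with 1 µg/mL of an extract of Carpesium cernuum (CCE), a plant. The treatment protocol stands on both samples, so the groups follow the treatment label, and whether controls got a vehicle was not stated in the sources used here. Each group was 1 library, so differences have no replicate check, no test was run, and the values describe these 2 libraries.

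Integrins are cell surface receptors built from 1 alpha and 1 beta subunit that bind the extracellular matrix outside the cell. Inside the cell, talin and kindlins bind the tail of the beta subunit and switch the receptor on. Vinculin, alpha-actinin, filamin and tensin tie it to actin, and focal adhesion kinase, Src, paxillin and p130Cas relay signals from it. Breast cancer cells use these complexes to spread, migrate and survive on matrix. The alpha subunit sets much of the ligand choice, so the genes are taken below by ligand and then by place in the adhesion complex.

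Counts on genes summed to 5633569 in the control and 34884501 after CCE. Levels are given as CPM, counts scaled to one common total of counts on genes, and 1 count was worth 0.178 CPM in control cells and 0.0287 CPM after CCE. Ratios are CCE over control, with exact 95% Clopper-Pearson counting intervals in parentheses. The intervals cover counting error only, not the spread between cultures. Genes with a mean of 1 CPM or more counted as measured. A gene was called higher or lower where it differed by 1.5-fold or more with an interval that left out 1. Of the line's markers, VIM, the gene of the mesenchymal filament vimentin, was high in both libraries, at 3690 CPM in control cells and 1824 CPM after CCE. It was called lower (log2 ratio -1.02, -1.04 to -0.99). AXL, with 614 and 327 CPM, was also called lower (-0.91, -0.96 to -0.85), and CD44 had 757 and 624 CPM (-0.28). ESR1, of the oestrogen receptor, had 0 counts in both libraries, and PGR, of the progesterone receptor, had 0 and 6. CDH1, the gene of E-cadherin, had 0 and 1 counts. ERBB2, listed as low or absent in this line, had 54.7 and 52.5 CPM. Of 10 markers of leukocytes, endothelium, platelets and smooth muscle, 9 were matched and 7 were under 1 CPM in both libraries. Those at 0 in both included CDH5 and DES, and PF4 had 0 and 59 counts. The summed level of the 9 was 9.94 CPM in control cells and 8.28 CPM after CCE, most of it MYH11. The part of other cells in the results was not tested.

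The adhesion genes were lower on balance in the CCE library. Of the 38 genes 34 were measured, and 7 of them were called lower: the laminin-binding integrin genes ITGA3, ITGA6 and ITGB4, the actin linker genes ACTN1 and TNS3, the scaffold gene TGFB1I1 and the protease gene CAPN2. ITGA2, the gene of a collagen receptor subunit, was the 1 gene called higher. Among all 14423 measured genes, 10.3% were called lower and 13.6% higher. The members' shares were 20.6% and 2.94%. By the same rule with upper-quartile scaling, 12.6% of all measured genes were lower and 10.5% higher, and 7 and 0 of the members. The median log2 ratio was -0.26 over the 34 members and 0.09 over all measured genes. At least 2-fold, 3 members were lower (ITGA6, ITGB4 and TNS3) and 0 higher, where 4.52% and 4.86% of all measured genes were. With a mean of at least 5 CPM, 32 members remained, again with 7 called lower and 1 higher, where 8.96% and 13.2% of 11306 genes were called. At 2-fold the shares of those genes were 2.57% lower and 2.88% higher, against 3 and 0 members. Together the 38 genes took 0.827% of the control counts and 0.654% of the CCE counts. A lower level in bulk RNA does not tell fewer cells that express a gene from less RNA per cell.

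**Figure D1:**
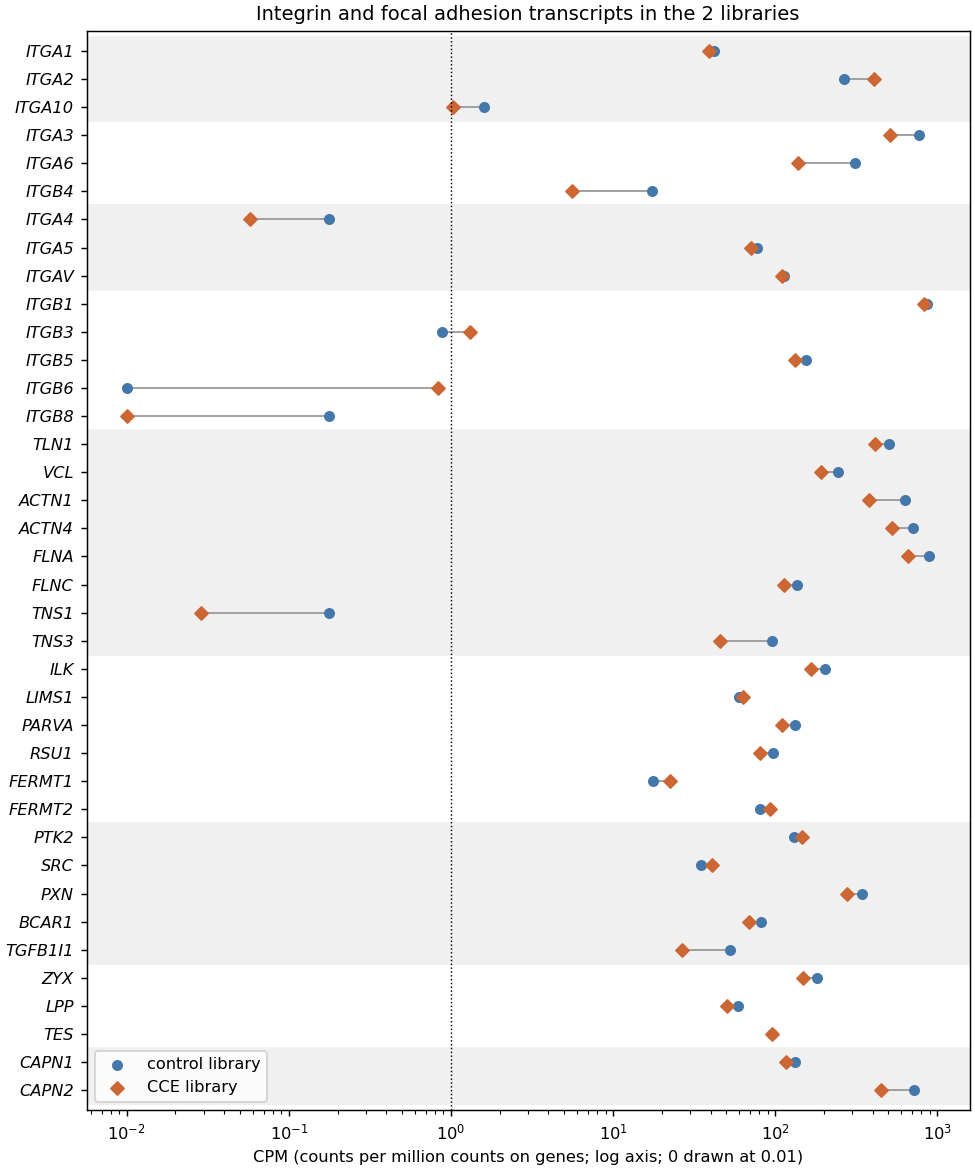
Level of each of the 38 genes in the control library (circles) and the CCE library (diamonds), as CPM on a log axis, in role groups marked by alternating bands; the dotted line is 1 CPM and a count of 0 is drawn at 0.01. FLNA and ITGB1 are the highest in both libraries, and the longest lines above 1 CPM belong to ITGB4, ITGA6, TNS3 and TGFB1I1, with the CCE library lower.

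To show the regulatory sequence beside the values, the stretches just upstream of 6 members are given: ITGA6 and ITGA2, whose ratios point in opposite directions, ITGB1, their common partner, which was nearly level, and TNS3, ACTN1 and CAPN2, which were called lower with ITGA6. They are read 5′ to 3′ on the gene's strand, from the RefSeq promoter table (GRCh38.p14). Each was found by exact match in GRCh37, and the exons annotated there were left out. On GRCh37 they lie at chr2:173292199-173292313 (plus strand), chr5:52284932-52285169 (plus), chr10:33247254-33247364 (minus), chr7:47621710-47621959 (minus), chr14:69444372-69444533 (minus) and chr1:223889049-223889294 (plus). The first 4 precede the start of the canonical transcript. The stretches of ACTN1 and CAPN2 were picked among the windows of each gene because they hold a CArG box. They precede other annotated starts, 1736 and 10942 bases from the canonical one. The stretches of ITGA2 and CAPN2 lie before the annotated gene, and the other 4 lie between exons of longer transcripts of their gene. Capitals mark letter matches on either strand to a GC box (GGGCGG), an AP-1 element (TGANTCA), a TEAD element (GGAATG), an antioxidant response element (TGACNNNGC), or, by name, a CArG box or a kappa B element.
ITGA6: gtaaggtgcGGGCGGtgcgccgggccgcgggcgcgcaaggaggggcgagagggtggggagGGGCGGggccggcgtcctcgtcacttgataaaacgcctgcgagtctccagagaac
ITGA2: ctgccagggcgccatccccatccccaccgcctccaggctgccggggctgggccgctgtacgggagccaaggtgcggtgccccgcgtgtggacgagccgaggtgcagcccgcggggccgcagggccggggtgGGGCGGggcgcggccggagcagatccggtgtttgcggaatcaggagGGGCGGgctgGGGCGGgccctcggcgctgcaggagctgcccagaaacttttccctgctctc
ITGB1: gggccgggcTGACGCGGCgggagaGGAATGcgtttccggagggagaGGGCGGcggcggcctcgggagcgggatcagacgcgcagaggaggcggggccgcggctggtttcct
TNS3: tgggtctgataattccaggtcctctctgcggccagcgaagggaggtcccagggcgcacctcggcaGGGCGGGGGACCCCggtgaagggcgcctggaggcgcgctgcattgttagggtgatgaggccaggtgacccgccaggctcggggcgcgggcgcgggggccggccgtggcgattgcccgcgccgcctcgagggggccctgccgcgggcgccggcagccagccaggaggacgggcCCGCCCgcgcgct
ACTN1: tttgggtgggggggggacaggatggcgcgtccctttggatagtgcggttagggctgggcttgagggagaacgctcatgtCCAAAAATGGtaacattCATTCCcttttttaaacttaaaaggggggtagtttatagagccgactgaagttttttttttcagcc
CAPN2: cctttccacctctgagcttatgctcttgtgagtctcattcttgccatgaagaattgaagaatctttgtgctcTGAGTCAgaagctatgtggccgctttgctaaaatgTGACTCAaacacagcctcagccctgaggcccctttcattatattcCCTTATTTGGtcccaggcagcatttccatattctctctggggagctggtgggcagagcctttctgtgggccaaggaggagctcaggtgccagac

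The ITGA6, ITGA2, ITGB1 and TNS3 stretches were rich in G and C (72.2% to 76.8%) and held 1 to 3 GC boxes each. Those of ITGA6 (115 bases) and ITGA2 (238 bases) held GC boxes and none of the other 5 motifs. Whether these letters bear on the ratios was not tested. The stretches of ACTN1 and CAPN2 each held 1 CArG box because they were picked for it. This element is bound by serum response factor, a regulator of actin cytoskeleton genes. In the table, 66 promoter windows of 250 bases belonged to 31 of the 38 genes, and 8 of the 66 (12.1%) held a CArG box, where 1.17% of all 34788 windows did. These 8 windows belonged to 8 genes, ACTN1, CAPN2, FLNA, ITGB6, LPP, RSU1, TES and TGFB1I1. Their log2 ratios, where measured, ran from -0.98 for TGFB1I1 to 0.00 for TES. ACTN1, CAPN2 and TGFB1I1 were called lower, FLNA, LPP, RSU1 and TES were not called, and ITGB6 was not measured. Of all measured members 20.6% were called lower, and of all measured genes 10.3%. Whether a CArG box bears on the ratios was not tested. A kappa B match was held by 13.6% of member windows and 5.21% of all, a TEAD match by 18.2% and 11.9%, an AP-1 match by 12.1% and 6.59%, a GC box by 54.5% and 42.6%, and an antioxidant response element by 13.6% and 10.9%. The AP-1 letters read the same on both strands. A letter match is a description of the sequence, not a binding site, and windows of 1 gene can overlap. FERMT1, ITGA3, ITGB3, ITGB4, PARVA, PTK2 and SRC had no entry in the table.

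The member genes grouped here as laminin-binding were all called lower by counts, 3 of 3, where 10.3% of all measured genes were. ITGB1, the beta partner of alpha 3 and alpha 6, is taken with the beta genes below and was not called. ITGB4, on chromosome 17 from 73717408 to 73753899 (GRCh37), encodes the beta 4 subunit, which pairs with alpha 6 alone and anchors hemidesmosomes to keratin filaments. It had 98 counts in the control library (17.4 CPM) and 194 in the CCE library (5.56 CPM), a log2 ratio of -1.65. The CCE level was 32.0% of the control level (24.9% to 41.2%), and 1.19% of all measured genes had a lower ratio. ITGA6, on chromosome 2 from 173292082 to 173371187, encodes its partner, the alpha 6 subunit, which also pairs with beta 1. It had 1762 and 4835 counts, or 313 and 139 CPM, a log2 ratio of -1.17 (-1.25 to -1.09). ITGA3, on chromosome 17 from 48133332 to 48167845, encodes alpha 3, which pairs with beta 1 on laminin. It had 4377 and 17780 counts, or 777 and 510 CPM, a log2 ratio of -0.61 (-0.66 to -0.56). That ratio sits close to the 1.5-fold limit, while those of ITGB4 and ITGA6 lie well past it. By the authors' FPKM + 1, ITGA6 was at -1.12, and ITGA3 (-0.53) and ITGB4 (-0.12) fell short of 1.5-fold.

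The collagen-binding alpha genes did not move as 1 group. ITGA2, on chromosome 5 from 52285170 to 52390609, encodes the alpha 2 subunit of the collagen receptor alpha 2 beta 1. It had 1507 counts in the control library (268 CPM) and 14224 in the CCE library (408 CPM), 1.52-fold higher (1.45 to 1.61). The ITGA2 ratio lay just past the limit. It fell short of 1.5-fold under each of the other count scalings, at log2 ratios of 0.53 to 0.57. ITGA1, the gene of the other widely expressed collagen receptor subunit, had 237 and 1374 counts, or 42.1 and 39.4 CPM, and its interval spanned 0 (log2 ratio -0.10, -0.29 to 0.11). ITGA10 encodes a collagen receptor subunit best known from cartilage. It had 9 and 36 counts, too few to place it on either side of 0 (-0.63, -1.71 to 0.61).

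The fibronectin and vitronectin receptor genes were close to level. ITGA5, whose product pairs with beta 1 as the classical fibronectin receptor, had 77.0 and 71.5 CPM, a log2 ratio of -0.11 (-0.25 to 0.04). ITGAV, whose product binds ligands with the RGD tripeptide and pairs with several beta subunits, had 113 and 110 CPM (-0.04, -0.16 to 0.08). Both intervals spanned 0. ITGA4, the gene of the alpha 4 subunit that binds VCAM1 and is typical of leukocytes, had 1 and 2 counts and was not measured.

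Among the beta subunit genes, ITGB1, which encodes the partner of most alpha subunits, was the most abundant member integrin. It had 4865 counts in the control library (864 CPM) and 29042 in the CCE library (833 CPM), a log2 ratio of -0.05 (-0.10 to -0.01). The common partner was thus nearly level while alpha 3, alpha 6 and alpha 2 transcripts differed. ITGB5, the gene of an alpha V partner on vitronectin, had 155 and 132 CPM (-0.24, -0.34 to -0.13). The other alpha V partners were scarce. ITGB3 had 5 and 46 counts, with an interval from 1.69 times lower to 4.79-fold higher. ITGB6, an epithelial alpha V partner that can activate latent TGF-beta, had 0 control counts and 29 CCE counts (0.831 CPM). Against a floor of 3 counts in the control library, or 0.533 CPM, ITGB6 was 1.56-fold higher in the CCE library. That value leaves out the counting error of the CCE counts, and ITGB6 lay below the level at which genes were measured. ITGB8, a related TGF-beta activator, had 1 and 0 counts.

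**Figure D2:**
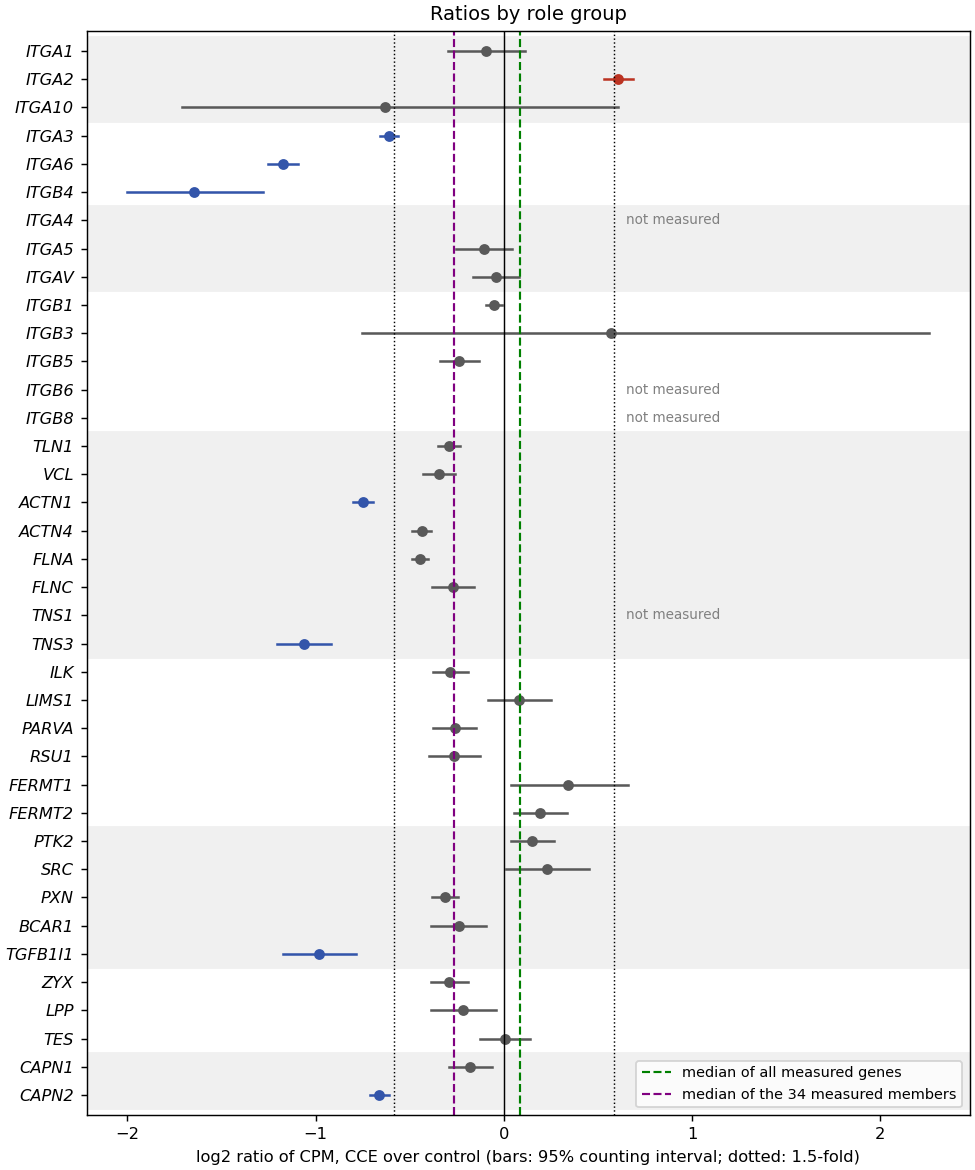
Log2 ratio of CPM, CCE over control, for the 34 measured genes in role groups, with 95% counting intervals as bars; blue marks genes called lower, red the gene called higher, and dotted lines 1.5-fold. The members' median (-0.26) lies left of the median of all measured genes (0.09), and all 3 laminin-binding genes lie left of the lower 1.5-fold line.

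Levels of different genes were compared per kilobase of the canonical transcript. On that scale alpha 3 led the member alpha subunits with 159 CPM per kb in the control library, followed by alpha 6 with 53.8, alpha 2 with 34.1, alpha 5 with 18.1, alpha V with 16.0 and alpha 1 with 3.92. In the CCE library alpha 3 still led with 104 CPM per kb, but alpha 2, with 52.0, stood above alpha 6, with 23.8. Of the per-length sum of the 8 alpha genes, alpha 2 made up 12.0% in control cells and 24.0% after CCE, alpha 6 18.9% and 11.0%, and alpha 3 55.7% and 48.2%. Beta 1 made up 85.9% and 87.8% of the sum over the 6 beta genes, and beta 5 made up 13.0% and 11.7%. Beta 4 was at 2.95 and 0.943 CPM per kb, so alpha 6 transcripts were 18.2 times those of beta 4 in control cells and 25.3 times after CCE.

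**Figure D3:**
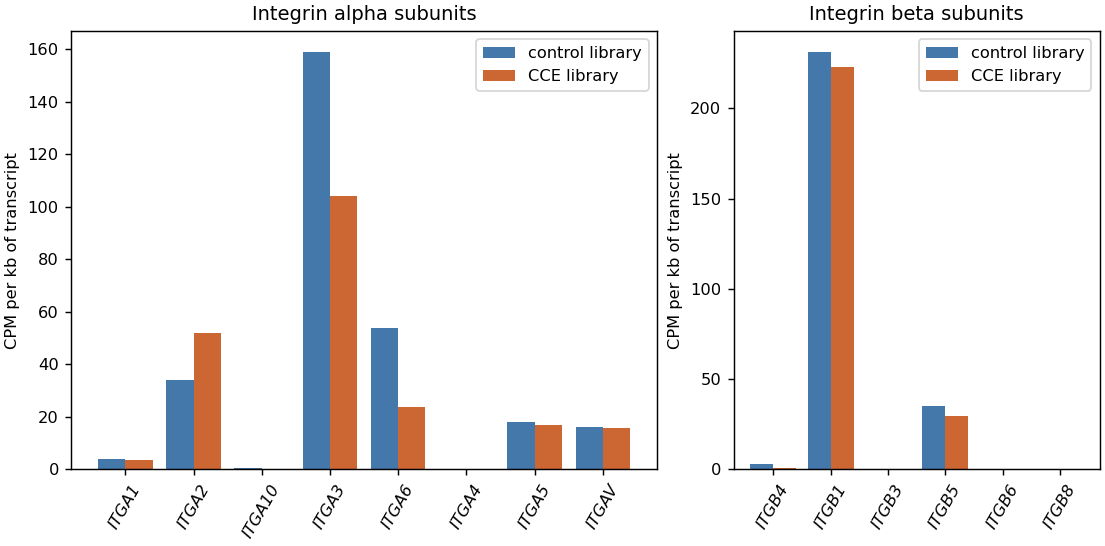
Level of each member integrin gene per kilobase of its canonical transcript (CPM per kb, linear axis from 0), alpha subunits left and beta subunits right, with 1 bar per library. Alpha 2 and alpha 6 change places between the control bars (34.1 and 53.8) and the CCE bars (52.0 and 23.8), while beta 1 stays near 231 and 223.

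The ratio of a pair of genes within a library does not depend on how the libraries are scaled. Counts of ITGA2 over ITGA6 went from 0.855 in the control to 2.94 in the CCE library, a 3.44-fold difference (3.19 to 3.71). Set against the common partner ITGB1, ITGA6 was 2.18 times lower in the CCE library (2.04 to 2.32) and ITGA2 was 1.58-fold higher (1.49 to 1.68). ITGA3 over ITGB1 went from 0.900 to 0.612, to 0.680 of the control ratio, with an interval below 1. For ITGA1, ITGA5 and ITGAV the same intervals against ITGB1 spanned 1. ITGA6 over ITGB4 was 1.39-fold higher in the CCE library (1.07 to 1.79), so beta 4 transcripts differed somewhat more than those of their partner.

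The linkers between integrin and actin were lower in the CCE library by counts, 7 of 7 measured with an interval below 0 and 2 called. By the authors' FPKM + 1, FLNC was at 2.46 and the other measured linkers were below 0, with TNS3 at -0.18. Of all measured genes 10.3% were called lower by counts. Intervals are narrow at these levels: of 3532 genes at or above the lower quartile of the members' mean CPM, 30.7% had an interval below 0. Of those genes 6.09% were called lower. ACTN1, which encodes the actin crosslinker alpha-actinin 1, had 3572 and 13180 counts, or 634 and 378 CPM, a log2 ratio of -0.75 (-0.80 to -0.69). TNS3, the gene of tensin 3, which binds the beta subunit tail and actin, had 536 and 1588 counts, or 95.1 and 45.5 CPM (-1.06, -1.21 to -0.92). Tensin 3 is a relative of tensin 1, whose gene TNS1 had 1 count in each library. The other linkers were lower by less than 1.5-fold. FLNA, the gene of the actin crosslinker filamin A and the most abundant member by CPM in the control, had 896 and 658 CPM (-0.44, -0.49 to -0.40). ACTN4 had 708 and 523 CPM (-0.44, -0.49 to -0.39). TLN1, the gene of talin 1, had 505 and 413 CPM (-0.29), VCL, the gene of vinculin, 244 and 192 CPM (-0.35), and the filamin C gene FLNC 137 and 114 CPM (-0.27). Within the pair of alpha-actinins, ACTN1 was 1.24 times lower relative to ACTN4 (1.18 to 1.31), and per length the order of the pair turned from 170 and 142 CPM per kb to 102 and 105.

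The complex of integrin-linked kinase, PINCH and parvin, together with its partner RSU1, had no called member. ILK had 204 and 168 CPM (log2 ratio -0.28, -0.37 to -0.19), PARVA, the gene of alpha-parvin, 132 and 110 CPM (-0.26) and RSU1 96.7 and 80.6 CPM (-0.26). LIMS1, which encodes PINCH1, had 60.2 and 63.6 CPM, with an interval that spanned 0 (0.08, -0.09 to 0.25). LIMS1 has near-identical copies elsewhere on its chromosome, so its counts are uncertain. The kindlin genes, whose products activate integrins with talin, had ratios above 0 by counts: FERMT1 had 17.8 and 22.5 CPM (0.34, 0.04 to 0.66) and FERMT2 81.1 and 92.8 CPM (0.19, 0.05 to 0.34). Neither passed 1.5-fold. With upper-quartile scaling both intervals spanned 0 (0.26 and 0.11), and by the authors' FPKM + 1 FERMT2 was at -2.90.

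Kinase genes had ratios above 0 by counts, and scaffold genes below 0. PTK2, which encodes focal adhesion kinase, had 131 and 146 CPM, a log2 ratio of 0.15 (0.04 to 0.27), and SRC, the gene of its partner kinase, 35.0 and 41.0 CPM (0.23, 0.01 to 0.45). The SRC interval spanned 0 under each of the other count scalings, and that of PTK2 with upper-quartile and DESeq2 scaling. With upper-quartile scaling the ratios were 0.07 for PTK2 and 0.15 for SRC. By the authors' FPKM + 1 PTK2 was at -1.30 and SRC at -1.90. TGFB1I1 encodes Hic-5, a LIM-domain relative of paxillin. It had 295 and 925 counts, or 52.4 and 26.5 CPM, a log2 ratio of -0.98 (-1.17 to -0.79). PXN, the gene of paxillin, had 346 and 278 CPM (-0.31, -0.38 to -0.24) and BCAR1, the gene of p130Cas, 81.5 and 69.0 CPM (-0.24, -0.38 to -0.09). Relative to PXN, TGFB1I1 was 1.59 times lower (1.38 to 1.83).

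Of the zyxin-type LIM genes 0 of 3 were called. ZYX, whose product gathers actin assembly factors at adhesions and stress fibres, had 182 and 149 CPM (-0.29, -0.39 to -0.19), and its relative LPP 58.9 and 50.7 CPM (-0.22, -0.39 to -0.04). TES, the gene of testin, was level at 96.0 and 96.3 CPM (0.00, -0.13 to 0.14). The calpains are calcium-dependent proteases that cut talin and other adhesion proteins when adhesions turn over. CAPN2, the gene of the large subunit of m-calpain, had 4031 and 15784 counts, or 716 and 452 CPM, a log2 ratio of -0.66 (-0.71 to -0.61). CAPN1, of mu-calpain, had 133 and 117 CPM (-0.18, -0.29 to -0.06). CAPN2 over CAPN1 went from 5.39 to 3.85, to 0.715 of the control ratio (0.656 to 0.779).

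The members just inside the lower 1.5-fold limit were ITGA3 (-0.61) and CAPN2 (-0.66), and the nearest with an interval below 0 just outside it were FLNA and ACTN4 (both -0.44). Over all 34 measured genes, 22 had an interval below 0, 5 an interval above 0 and 7 an interval that spanned 0. Among all measured genes with counts in both libraries, 22.8% had an interval below 0 and 32.8% one above. Of the 3532 genes at or above the lower quartile of the members' mean CPM, 30.7% were below and 45.6% above. With upper-quartile scaling 24 members were below 0 and 1, ITGA2, above. By that scaling 27.9% of all measured genes were below and 26.5% above, and 39.3% and 35.9% of the 3532 genes.

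Of 12 other integrin genes 2 were measured. ITGB2, the leukocyte beta 2 subunit gene, had 43 and 144 counts (7.63 and 4.13 CPM), a log2 ratio of -0.89 (-1.39 to -0.36), and was called lower. ITGAE, the gene of the E-cadherin-binding alpha E subunit, had 80.4 and 73.0 CPM (-0.14, -0.28 to 0.01). Of 44 other focal adhesion genes 36 were measured, 5 were called lower (13.9%) and 1 higher (2.78%). Of all measured genes 10.3% were called lower and 13.6% higher. The median log2 ratio of this list was -0.09. The genes called lower included TLN2, the gene of talin 2 (-1.26, -1.74 to -0.76), SORBS3, of the vinculin-binding protein vinexin (-0.96, -1.19 to -0.72), and LIMS2, of PINCH2 (-0.90, -1.18 to -0.61). These 3 were named for having the lowest ratios at a mean of at least 5 CPM. SORBS2 (-1.29) and KANK2 (-0.60) were also called lower, and were named outside that rule after their values were seen. The gene called higher was ARHGEF7, of the PAK-binding exchange factor beta-PIX, 1.68-fold higher (1.41 to 2.01). LIMD1 (0.44) and GIT1 (0.43), of the beta-PIX partner GIT1, came next without passing 1.5-fold. The most abundant of the list per length, CSRP1 and PDLIM7, had log2 ratios of -0.23 and -0.43.

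The authors' FPKM values, deposited beside the counts, gave a less orderly picture for the same genes. On the log2(FPKM + 1) scale all 7 genes called lower by counts were below 0, and 4 of them (ITGA6, ACTN1, TGFB1I1 and CAPN2) passed 1.5-fold. ITGA3 had -0.53, TNS3 -0.18 and ITGB4 -0.12, the latter with 0.564 and 0.439 FPKM. ITGA2, higher by counts, was at 27.6 and 25.1 FPKM (-0.13). Among all 34 genes 23 had the same sign by both measures, 9 the opposite sign and 2 were listed at 0 FPKM in both libraries. The widest gaps were for FLNC (2.46 by FPKM), FERMT2 (-2.90), SRC (-1.90) and FLNA (-2.41). For FPKM the depth is unknown. By FPKM + 1, 24.1% of all measured genes were past 1.5-fold lower and 21.3% higher, so the 14 members past 1.5-fold lower by FPKM stand against a wide spread over all genes.

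**Figure D4:**
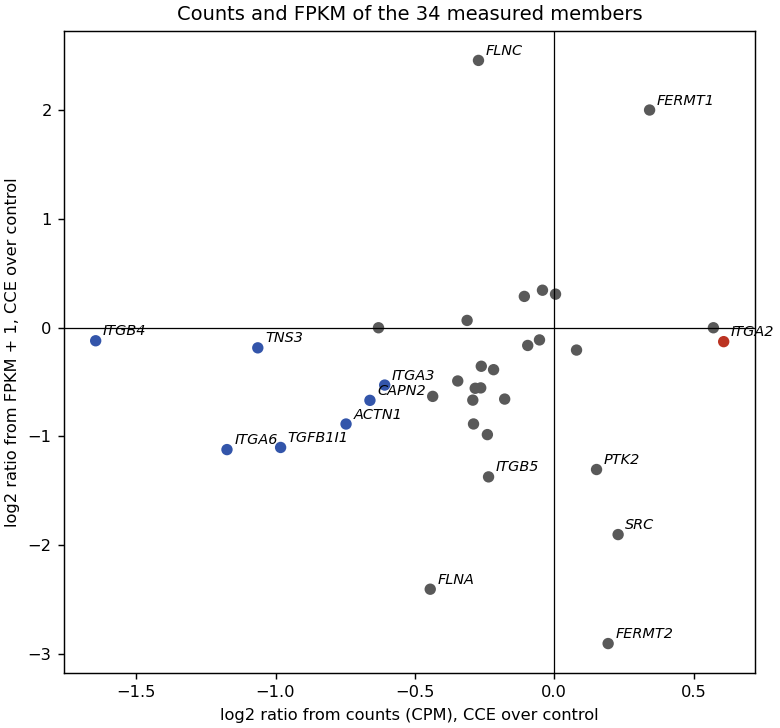
Log2 ratio (CCE over control) of the 34 measured genes from counts on the horizontal axis and from the authors' FPKM + 1 on the vertical axis; blue marks genes called lower by counts and red ITGA2. The 7 blue points lie below 0 on both axes, while FLNC, FERMT2, PTK2 and SRC lie on opposite sides of 0.

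Over 11571 protein-coding genes, Spearman's rho between GC content of the canonical transcript and log2 ratio was -0.23, a description across genes that share the same 2 libraries. The measured members had a median GC content of 53.9%, against 47.8% for measured protein-coding genes. In 4 equal bins from the lowest to the highest GC content, the median log2 ratio of all those genes was 0.22, 0.14, 0.06 and -0.08, and that of the 7, 6, 8 and 13 members there was -0.04, -0.13, -0.49 and -0.29. The members' median was below that of all genes in each bin. Of the members, 23 lay in the top bin of mean CPM, where the median of all genes was 0.07 and that of the members -0.27. Some members share exonic sequence with another expressed gene on the opposite strand, and the strand setting of the counting was not stated in the sources used here. ILK shares 2375 exonic bases with TAF10, PXN 1769 with PXN-AS1, VCL 1109 with AP3M1 and ACTN4 868 with CAPN12. ITGA1 shares 499 with PELO on its own strand. The part of GC content and of shared sequence in the ratios was not tested.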

How the data were processed

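RNA was taken from 1 control and 1 CCE-treated culture of MDA-MB-231, and the tool HISAT2 and builds GRCh37 and hg19 are listed, per the submitters' processing notes. The authors deposited raw counts per Ensembl gene. The 5 rows that name no gene, 62.9% of control and 66.8% of CCE records, were left out. The authors also deposited FPKM values with repeated gene IDs, summed here per gene. The programs for counts and for FPKM, the strandedness of counting and the authors' annotation were not stated in the sources used here.

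Symbols, gene positions and lengths were read from the GRCh37 lift of GENCODE 44 (55665 of 63677 IDs matched). CPM used the total count on genes, as the rule that defines these genes states. Log2 ratios had no pseudocount for counts, and intervals were exact Clopper-Pearson intervals (Python 3.11.15 with scipy 1.17.1). Reads copied by PCR are not independent molecules, and neither intervals nor floors include that. Genes at 3 counts or fewer in both libraries got no fold. Other scalings came from edgeR 4.0.16 and DESeq2 1.42.0 in R 4.3.3, and FPKM was compared at pseudocounts of 1 and 0.1. The procedure was run on simulated Poisson counts at the depths of the 2 libraries. Those counts held counting error only, so the run cannot show how the procedure does with spread between cultures or PCR copies. Named were all members, the measured other integrins, and of the other focal adhesion genes the 3 highest and 3 lowest ratios at a mean of at least 5 CPM with an interval excluding 1 and the 2 most abundant per length. The members and lists were chosen with earlier results of these data known.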

Additional observations from a re-analysis of the deposited data

How the results depend on the processing

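With 1 library per group, no replicate could be left out, and depth in the control library set the precision. No paired analysis was possible because each group has 1 library. The 7 genes called lower kept their call with TMM, upper-quartile and DESeq2 scaling, with totals without the mitochondrial genome, with no count filter and at a mean of 5 CPM. Genes called lower numbered 14 by log2(FPKM + 1), 16 by log2(FPKM + 0.1), 3 of the 7 that overlap no other gene and 3 at 2-fold. Of all genes, 24.1%, 27.8%, 11.1% and 4.52% were called lower in the same order. Genes called higher, 1 in the main analysis, numbered 0 under each of those 4 count scalings, among genes that overlap no other and at 2-fold, 2 by either FPKM scale and 2 with no filter (ITGA2 and ITGB6). Of all genes, 10.5% to 12.1% were called higher under those scalings, 13.6% without overlaps and 4.86% at 2-fold. By the FPKM scales 21.3% and 26.9% of all genes were, and with no filter 8.47%. The median of the members was -0.51 and -0.57 by the FPKM scales. FPKM rescaled to equal totals, an alternative chosen after seeing the data, moved the median of all genes by 0.11 to 0.20, gave the members -0.10 and ended 5 of the 7 lower calls (ITGA3, ITGB4, ACTN1, TNS3 and CAPN2). It called 5 members higher, where 34.9% of all genes were called higher and 16.5% lower, and put ITGB4 at 0.071 and ITGA2 at 0.34. ITGA2 was at -0.13 on the FPKM scales without rescaling. For the 44 other focal adhesion genes, the 5 called lower became 11, 14 and 8 by FPKM + 1, FPKM + 0.1 and rescaled FPKM, 1 among those that overlap no other gene and 2 at 2-fold. In that order 24.1%, 27.8%, 16.5%, 11.1% and 4.52% of all genes were lower. The 1 of the list called higher became 6, 6, 9, 0 and 0, against 21.3%, 26.9%, 34.9%, 13.6% and 4.86% of all genes. At a mean of 5 CPM, 4 of 32 were called lower and 1 higher, against 8.96% and 13.2% of all genes. The median of the list became -0.22, -0.26 and 0.17 by FPKM, -0.24 without overlaps and -0.004 at 5 CPM. The cause of the differences between counts and FPKM was not tested.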
